A study of Mus musculus with 20 samples.

Results

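The regions described here are 100 bp bins of the mouse genome in gene deserts, that is, autosomal bins that overlap no RefSeq transcript and lie more than 50 kb from any RefSeq transcription start site (TSS). They were taken from the deposited bins in which every treatment group varied and in which no value other than 0 or 100 recurred within a group. This gave 5721 desert bins of 84131 such bins in the whole series (6.80%), and of 128755 deposited desert bins (4.44%). Methylation was measured by reduced representation bisulfite sequencing (RRBS) in haematopoietic stem cells (HSCs), sorted as Lin-cKit+Sca1+CD34-Flk2-CD150+ cells, from female C57BL/6J mice that were 3 months old at the start. The groups were 0x (no 5-fluorouracil, 4 samples), 2x (2 cycles, 6 samples), 4x (4 cycles, 4 samples) and 10x (10 cycles, 6 samples). 5-Fluorouracil (5FU), an antimetabolite toxic to dividing cells, was injected intraperitoneally every 3 weeks, and HSCs were taken 1 month after the last cycle. The study describes its untreated controls as matched in age to a treated group and as early middle-aged by the end. No age is given for single methylation samples, and its part in the results was not tested. The labels name blood as the tissue and the methods name bone marrow, and neither says that each sample is a separate mouse, so the p-values measure only the spread between these samples.

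In mammals a methyl group is carried by the cytosine of most CpG sites, and the main exceptions are CpG-rich promoters and active enhancers. Gene deserts are long stretches without annotated genes. They are rich in repeats, usually densely methylated, and in places hold distant enhancers of developmental genes. RRBS cuts DNA at CCGG and sequences the fragment ends, so it samples such stretches thinly and at the few places where CpG sites cluster. Loss of methylation from gene-poor DNA is a known feature of repeated cell division and ageing in many tissues.

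The stretches of DNA behind the results below are shown as read from the GRCm38 (mm10) plus strand, 5′ to 3′, with each CpG site in capitals. The first 3 hold the bins that passed the test in a comparison of cycles, and the first of them runs on into the next bin. The next is a pair of neighbouring bins whose differences had opposite signs. The last 3 show how unlike desert bins can be: a bin near Six3 at a low level, a bin of the same desert at a high level, and a bin of a ribosomal RNA-like stretch.

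Gm31135 desert, chr8:8307500-8307699: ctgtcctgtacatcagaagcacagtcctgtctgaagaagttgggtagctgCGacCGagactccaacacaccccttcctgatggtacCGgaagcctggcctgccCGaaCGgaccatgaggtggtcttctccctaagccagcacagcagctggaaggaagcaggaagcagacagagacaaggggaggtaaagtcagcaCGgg
Gm46834 desert, chr3:39922200-39922299: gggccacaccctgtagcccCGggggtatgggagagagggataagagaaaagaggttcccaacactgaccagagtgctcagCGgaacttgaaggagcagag
Rasa1 desert, chr13:85573000-85573099: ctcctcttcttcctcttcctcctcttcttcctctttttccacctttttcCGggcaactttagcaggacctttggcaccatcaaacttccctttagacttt
Gm39204 desert, chr8:78956500-78956699: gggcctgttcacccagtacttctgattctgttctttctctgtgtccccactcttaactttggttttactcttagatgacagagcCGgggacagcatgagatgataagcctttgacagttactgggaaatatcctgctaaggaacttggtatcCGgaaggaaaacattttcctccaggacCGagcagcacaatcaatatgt
Six3 desert, low bin, chr17:85485400-85485499: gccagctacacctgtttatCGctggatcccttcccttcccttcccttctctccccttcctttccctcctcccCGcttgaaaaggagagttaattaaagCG
Six3 desert, high bin, chr17:85553200-85553299: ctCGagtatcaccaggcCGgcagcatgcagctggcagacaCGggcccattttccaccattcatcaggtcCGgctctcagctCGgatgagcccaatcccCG
AY036118 desert, ribosomal RNA-like bin, chr17:39843500-39843599: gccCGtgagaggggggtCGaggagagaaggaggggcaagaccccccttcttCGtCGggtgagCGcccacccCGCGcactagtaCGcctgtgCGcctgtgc

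Most of these sequences hold few CpG sites. The Rasa1 bin has 1 CpG, the Gm46834 bin has 2 and the Gm31135 bin has 3, whereas the ribosomal RNA-like bin has 9. Over all desert bins the median was 2 CpG sites, against 4 in the 75662 other autosomal bins of the same kind. Bins with 1 CpG made up 29.3% of desert bins and 12.6% of the others, and bins with 7 or more made up 6.89% and 33.4%. Desert bins were poorer in G and C (49.2% against 58.4%) and richer in soft-masked repeats (38.4% of bases against 13.6%). The recognition site CCGG was present in 92.0% of desert bins and 95.1% of the others. Desert bins lay a median of 98008 bp from the nearest TSS, with 2805 beyond 100 kb and 230 beyond 500 kb, and fell in 1962 separate desert stretches, of which 727 held 1 bin. Although none overlaps a RefSeq transcript, 504 lie in a transcript of GENCODE M21 and 129 in a RefSeq pseudogene record.

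The values are percent methylation. Read numbers are not part of the files used, and depth is therefore unknown. Bins missing in a sample had been given the group's mean before deposit, and such values are not marked. Of the deposited desert bins, 65129 (50.6%) held 1 value in all 20 samples and 42202 (32.8%) held a repeated value, and the bins used here are what remained without either. Of the samples, 4x sample 06 and 10x sample 32 stood apart. The 4x sample was at 100% in 8.08% of desert bins, where the other 19 samples ranged between 22.4% and 56.1%. The 10x sample lay strictly between the other values of its group in 69.3% of desert bins, against 21.2% to 52.2% in the others. The part of either in the results was not tested, and values without them are given where they matter. As a check of the cells, 6 of 7 genes of blood cells had promoter bins, with gene means of 1.83% (Kit) to 10.3% (Spi1). Of 5 genes of other lineages, 4 had promoter bins, at 5.29% (Neurod1), 18.5% (Cdh1), 79.5% (Krt5) and 82.0% (Myh6), and Ptprc and Alb had none. Promoter methylation does not by itself identify a cell.

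Desert DNA was densely methylated in every group. The median level of a desert bin over all 20 samples was 92.5%, against 44.9% in the other autosomal bins. Of the 5721 desert bins, 4562 (79.7%) were above 80%, 887 (15.5%) between 20% and 80%, and 272 (4.75%) below 20%. Outside the deserts 39.2% were above 80%, 15.99% in between and 44.8% below 20%. The deserts thus lacked most of the unmethylated class, which elsewhere holds the CpG-rich promoters. The low desert bins had a mean of 5.28 CpG sites and 9.86% soft-masked bases, against 2.80 CpG sites and 42.9% in desert bins above 80%. In every group the level was higher farther from genes. At 50 to 100 kb it averaged 82.0% in 10x and 79.8% in 0x, and beyond 500 kb it averaged 91.0% in 10x and 89.1% in 0x.

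**Figure D1:**
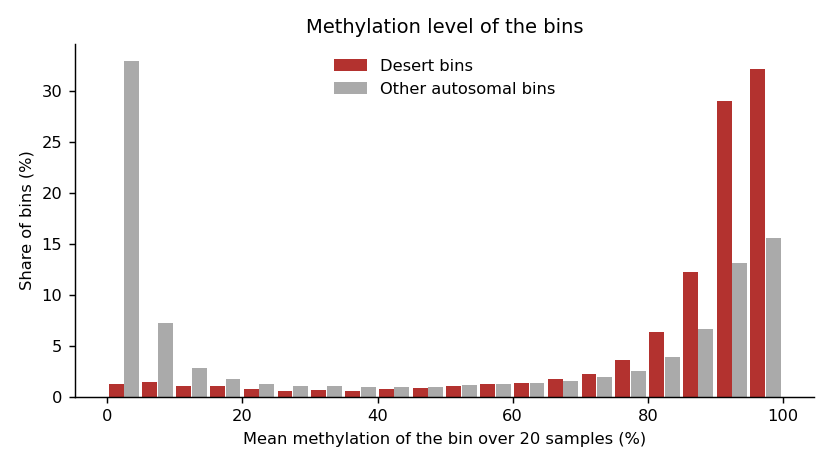
Share of bins (%) in each 5-point class of mean methylation over the 20 samples, for desert bins (red) and other autosomal bins (grey). Desert bins gather at the high end, with 79.7% above 80%, and 4.75% of them lie below 20%, against 44.8% of the others.

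The first comparison asked whether methylation of this gene-poor DNA differed with the number of 5FU cycles. Averaged over all desert bins, it was 85.3, 84.7, 85.5, 84.6, 85.3 and 84.8% in the 6 10x samples, against 84.0, 82.5, 81.8 and 82.1% in the 4 0x samples. All 6 10x samples lay above all 4 0x samples. The group means were 85.0 ± 0.371% in 10x and 82.6 ± 0.999% in 0x (SD, n = 6 and n = 4), a difference of 2.43 percentage points with a standard error of 0.522. In 4x the samples were at 84.0, 83.7, 84.0 and 84.9%, a mean of 84.1 ± 0.522% (SD, n = 4) and 1.52 ± 0.563 points above 0x (difference ± SE), with 1 of 4 samples above every 0x sample. In 2x they were at 83.9, 83.2, 82.1, 81.7, 84.2 and 83.4%, a mean of 83.1 ± 0.980% (SD, n = 6) and 0.494 ± 0.640 points above 0x. The order of the group means thus followed the number of cycles in this set of bins, but 2x and 4x overlapped 0x. These are averages over chosen bins, so they carry no p-value.

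**Figure D2:**
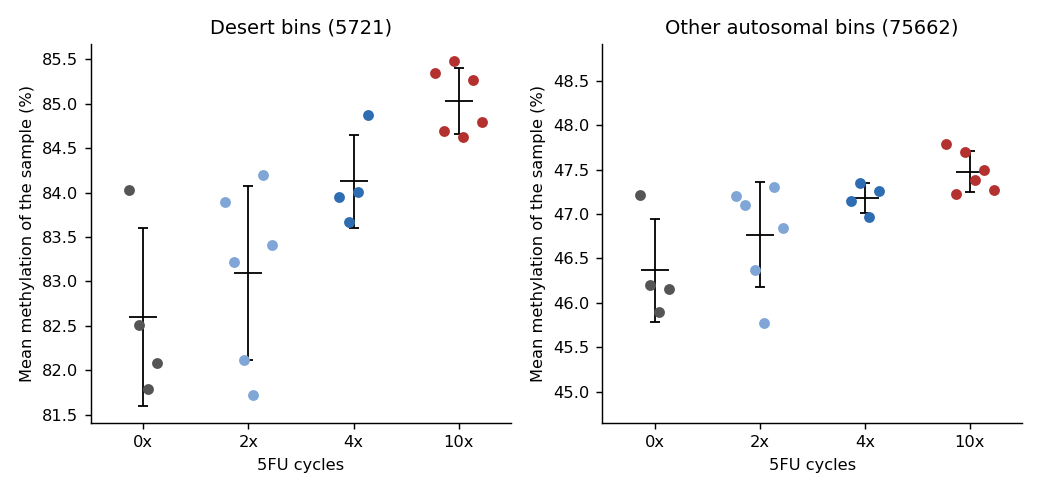
Mean methylation (%) of each sample by number of 5FU cycles, over 5721 desert bins (left) and 75662 other autosomal bins (right), each point a sample and each bar the group mean ± SD. The axes differ in level but span the same number of points. In the deserts all 6 10x samples, from 84.6% to 85.5%, lie above the highest 0x sample at 84.0%.

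The difference did not rest on a single sample or stretch. It ranged between 2.16 and 2.91 points when each 10x or 0x sample was left out in turn, and was 2.51 without 10x sample 32 and 2.42 without the largest stretch. The 4x difference was 1.68 points without 4x sample 06. The labels number the samples in a lower run (1 to 12) and a higher run (13 to 34), each of which holds all 4 groups. The 10x difference was 1.75 points within the lower run (2 samples against 2) and 3.11 points within the higher run (4 against 2). In 4x the within-run differences were 0.542 and 2.50 points, and in 2x 0.291 and 0.930 points. Size therefore differed between the runs while the sign did not. Over all 128755 deposited desert bins, including those with 1 value throughout, the 10x mean was 89.6% and the 0x mean 88.6%, 1.05 points apart. There 2x was 0.507 and 4x 0.475 points above 0x, so the order of 2x and 4x was not that of the bins used here. Each of the 19 autosomes had a higher desert mean in 10x than in 0x, from 0.756 points on chromosome 8 to 4.09 points on chromosome 13, and on 9 of them every 10x sample lay above every 0x sample. The 4x mean was above 0x on 18 autosomes and the 2x mean on 15.

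Other parts of the genome were also higher in 10x on average, but not at every level. The 12574 intergenic bins 5 to 50 kb from a TSS averaged 75.9% in 10x and 73.7% in 0x (difference 2.27 points). The 75662 autosomal bins outside deserts averaged 47.5% in 10x and 46.4% in 0x (1.11 points), and bins in transcripts 42.2% in 10x and 41.4% in 0x (0.850 points). These sets differ in level. Among bins above 80%, the 10x difference was 2.42 points in deserts and 2.22 points outside them. Among bins of 20% to 80% it was 3.29 ± 0.735 and 2.49 ± 0.850 points (± SE). Among bins below 20% the order turned. The 33872 such bins outside deserts were lower in 10x (difference -0.359 ± 0.043 points, ± SE), with all 6 10x samples below all 0x samples, and the low desert bins had a difference of -0.235 ± 0.412 points. Above 20%, the desert difference was near that of the rest of the genome, and the gap between them was not tested. Around the 50 kb limit, the 1188 intergenic bins at 40 to 50 kb averaged 82.1% in 10x and 79.3% in 0x, and the 892 desert bins at 50 to 60 kb averaged 79.1% in 10x and 76.9% in 0x.

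Among desert bins the difference varied with CpG number more than with distance. Bins with 1 CpG averaged 86.5 ± 0.613% in 10x and 83.4 ± 1.17% in 0x, 3.16 points apart. Bins with 2 to 3 CpG sites differed by 2.51 points, those with 4 to 6 by 1.69 points and those with 7 or more by 0.979 points. Restricted to bins above 80%, the values were 3.15, 2.41, 1.79 and 1.14 points, and outside deserts at the same level they were 2.93, 2.35, 1.69 and 1.12 points. The decline with CpG number was therefore much alike inside and outside deserts. A bin with fewer CpG sites is also measured from fewer positions, and the part of this in the gradient was not tested. By distance the differences were 2.18 points at 50 to 100 kb, 2.69 at 100 to 200 kb, 2.89 at 200 to 500 kb and 1.93 beyond 500 kb, with standard errors of 0.581, 0.3995, 0.561 and 0.713 points. Bins with at least 50% soft-masked bases differed by 2.55 points and the rest by 2.36 points. After these values were seen, bins with 1 CpG were divided by whether it lay in a CCGG site. The 1530 bins with it in CCGG differed by 3.15 points and the 119 with it elsewhere by 3.28 points. The 272 low bins averaged 9.27 ± 0.573% in 10x and 9.50 ± 0.679% in 0x, within the spread of the samples, with 136 of them higher in 10x.

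**Figure D3:**
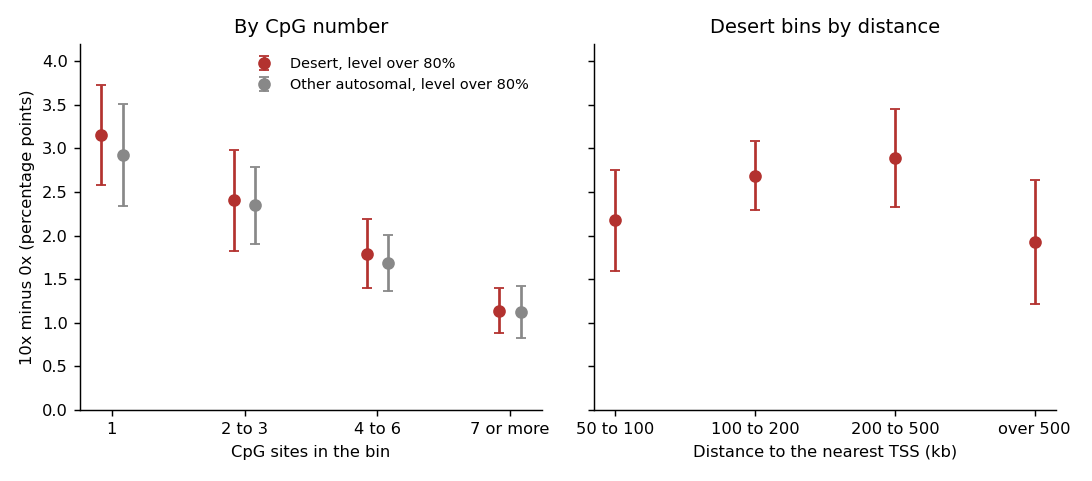
Difference between 10x and 0x in mean methylation (percentage points, ± SE over samples). Left, by CpG sites per bin, for bins above 80% in deserts (red) and elsewhere on autosomes (grey). Right, by distance of desert bins from the nearest TSS. The difference runs from 3.15 points at 1 CpG to 1.14 points at 7 or more in deserts, and from 2.93 to 1.12 points elsewhere.

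The shift was spread over many bins. The 10x mean was above the 0x mean in 3589 of 5721 desert bins (62.7%), with a median difference of 1.53 points, against 55.4% and 0.439 points outside deserts. In the 12574 intergenic bins nearer to a TSS the values were 60.7% and 1.39 points, close to those of the deserts. The 4x mean was above the 0x mean in 3342 desert bins (58.4%, median 0.961 points), and the 2x mean in 2997 desert bins (52.4%, median 0.325 points). Single bins were noisy. The median SD of a desert bin was 5.58 points within 10x, 6.34 within 4x, 10.9 within 2x and 8.09 within 0x, larger than the mean shift. Bins of 20% to 80% had median SDs of 16.5 points in 10x and 19.1 in 0x.

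Each treated group was then tested against 0x bin by bin with limma (moderated test on percent), fitted on all 84131 bins with Benjamini-Hochberg adjustment over all of them. A bin was called at an adjusted p under 0.05 and at least 10 points. In 10x, 1 desert bin was called (0.0175% of desert bins), where 0.0131% of all bins tested were called. In 4x no desert bin was called, with 0.00713% of all bins, and in 2x 2 were called (0.0350%), with 0.00357% of all bins. A slope over the number of cycles called no desert bin and 0.00119% of all bins. At an unadjusted p under 0.05 and the same 10 points, 229 desert bins (4.00%) were higher in 10x, beside 2.90% of all bins, and 49 (0.856%) lower, beside 1.28%. In 4x 128 (2.24%) were higher, beside 1.81%, and 71 (1.24%) lower, beside 1.04%. In 2x 153 (2.67%) were higher, beside 1.84%, and 30 (0.524%) lower, beside 1.02%. The unadjusted slope was positive in 154 bins (2.69%), beside 2.26%, and negative in 90 (1.57%), beside 1.29%. In the 10x and 2x comparisons, which share the 0x samples, desert bins thus held a larger share of higher and a smaller share of lower bins than the whole table. The 2 sets were not matched for level, since 4.75% of desert bins and 40.8% of all bins were below 20%. No test of these shares was made.

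Bins in which the groups did not overlap gave a like picture. Every 10x sample lay above every 0x sample in 77 desert bins (1.35%), beside 0.899% of all bins, and below in 17 (0.297%), beside 0.420%. For 4x the counts were 86 above (1.503%, beside 1.25%) and 36 below (0.629%, beside 0.708%). For 2x they were 47 above (0.822%, beside 0.372%) and 9 below (0.157%, beside 0.304%). In the 12574 intergenic bins nearer to a TSS, the 10x shares were 1.26% above and 0.390% below. There the 4x shares were 1.47% and 0.708%, and the 2x shares 0.525% and 0.159%. The desert shares were thus near those of these bins in 10x and 4x, while in 2x the desert share above was larger.

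The bin called in 10x lies at chr8:8307500-8307599, 135 kb from the TSS of the predicted gene Gm31135 and 354 kb from Efnb2, which encodes the ligand ephrin B2. It holds 3 CpG sites and no repeat, and GENCODE places it inside a longer Gm31135 transcript. Its methylation was 91.3, 92.6, 100, 95.5, 100 and 100% in 10x, against 75, 75.1, 69.2 and 74.0% in 0x. The 10x and 0x samples did not overlap, with means of 96.6 ± 4.00% and 73.3 ± 2.81% (SD). The difference was 23.3 points (limma SE 2.37, adjusted p = 0.0301). In 4x the bin was at 85.8, 80, 100 and 100%, all above 0x, and in 2x at 42.5, 82.8, 100, 100, 100 and 100%, with sample 03 below 0x. Neither of these passed the test (adjusted p = 0.975 and 0.998). The neighbouring bin 100 bp on, in the same printed sequence, averaged 85.2% in 10x and 61.3% in 0x, but its samples overlapped, and in 2x it averaged 35.9%. The call in 10x was lost without any of 0x sample 14 or 10x samples 31, 32, 33 and 34 (adjusted p 0.0510 to 0.118).

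Both bins called in 2x lie far from genes. At chr3:39922200-39922299, 209 kb from the predicted gene Gm46834, the 2 CpG sites are inside repeat sequence that covers the whole bin. The level was 99.2, 100, 100, 100, 100 and 96.0% in 2x, against 64.7, 63.5, 72.4 and 75.2% in 0x. The groups did not overlap, and the bin rose by 30.2 points in 2x (limma SE 2.61, adjusted p = 0.0445). It was at 77.7, 73.8, 90.0 and 100% in 4x and at 39.5, 89.0, 77.4, 100, 85.4 and 89.9% in 10x, 16.4 and 11.2 points above 0x, and neither passed the test (adjusted p = 0.975 and 0.860).

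At chr13:85573000-85573099 the single CpG lies in the pseudogene record Gm5666, 284 kb from Rasa1, which encodes a GTPase-activating protein of Ras. The level was 57.7, 52.1, 62.1, 57.8, 52.0 and 59.8% in 2x, against 29.3, 30.1, 33.6 and 28.5% in 0x. The bin rose by 26.5 points in 2x (limma SE 2.49, adjusted p = 0.0480), again without overlap. In 4x it was at 34.3, 41.8, 30.8 and 57.0%, and in 10x at 51.0, 52.8, 22.4, 41.4, 27.9 and 35.3%, overlapping 0x. Since a pseudogene resembles its parent gene, reads could be shared with a copy elsewhere, and the value is uncertain. The 3 calls rest on small within-group spreads, and each was lost when the spread was estimated over all 4 groups (adjusted p = 0.911 for the Gm31135 bin, 0.327 for the Gm46834 bin and 0.134 for the Rasa1 bin).

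**Figure D4:**
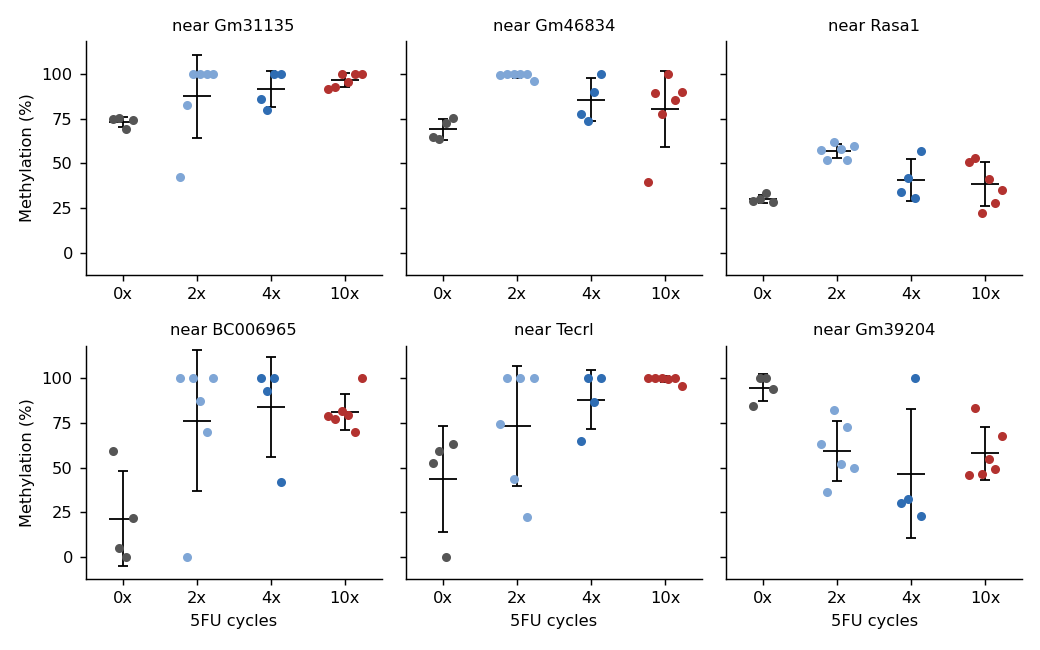
Methylation (%) of 6 desert bins, named by the gene of the nearest TSS, by number of 5FU cycles, with each point a sample and each bar the mean ± SD (bars can pass 100%). Near Gm31135 all 10x samples are at 91.3% or more and all 0x samples at 75.1% or less, whereas near Gm39204 all 10x samples are at 83.3% or less and all 0x samples at 84.2% or more.

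The largest differences among bins with an unadjusted p under 0.05 and no overlap were larger but did not pass the adjustment. They are given as values. At chr11:112645600-112645699, 65.7 kb from the non-coding gene BC006965, the single CpG was at 78.6, 77.1, 81.7, 79.3, 69.6 and 100% in 10x, against 59.1, 5.41, 0 and 21.6% in 0x (difference 59.5 points, adjusted p = 0.203). It was lower in 0x than in most samples of 4x and 2x too, where means were 83.8% and 76.2%. At chr5:83428400-83428499, 73.2 kb from Tecrl, a relative of enoyl reductases of fatty acid synthesis, the values were 100, 100, 100, 99.2, 100 and 95.7% in 10x, against 52.5, 59.1, 0 and 63.3% in 0x (55.4 points, adjusted p = 0.237). Without 0x sample 13, the one at 0, this difference was 40.9 points with an adjusted p of 0.00187. The bin near BC006965 likewise had an adjusted p of 0.0205 without 0x sample 01. Near Dpp6, which encodes an auxiliary subunit of potassium channels, the 10x samples ranged from 45.7% to 85.6% with a median of 67.3%, against 41.1, 23.3, 5.95 and 0% in 0x (50.1 points, adjusted p = 0.209). Bins near Gm31933 (53.1 points) and near Cwc27 (42.1 points), a cyclophilin of the spliceosome, had adjusted p-values of 0.277 and 0.519. Without 10x sample 32, which was at 100%, the Cwc27 difference was 32.02 points.

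In the other direction, the second bin of the printed Gm39204 sequence (chr8:78956600-78956699), with 2 CpG sites, lies 50.3 kb from the RefSeq TSS of that predicted gene and inside a GENCODE transcript of it. It was at 46.02, 83.3, 46.5, 55.03, 49.3 and 67.8% in 10x, against 84.2, 100, 100 and 93.8% in 0x, without overlap. In 4x it was at 30.4, 32.4, 100 and 23.1%, with sample 19 apart from the other 3, and in 2x it spread between 36.2% and 82.0%. This bin and those near Gm35222 and Gm35818 differed by -36.5, -36.0 and -33.3 points in 10x, with adjusted p-values of 0.288, 0.292 and 0.787. Without 10x sample 32, which was at 0%, the Gm35818 difference was -21.5 points.

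At Gm39204, neighbouring bins had opposite differences. In the 200 bp printed above, the second bin averaged 58.0 ± 14.8% in 10x and 94.5 ± 7.48% in 0x, while the first averaged 70.8 ± 18.2% in 10x and 39.8 ± 27.7% in 0x. Over all pairs of desert bins 100 bp apart (526 pairs), levels correlated with r = 0.862, but 10x differences with r = 0.00330. For the 731 pairs 200 to 1000 bp apart the values were 0.896 and 0.0943. The sign of the 10x difference was nevertheless the same in 56.5% of the pairs 100 bp apart. It was the same in 70.7% of those 200 to 1000 bp apart and in 65.03% of the 1510 pairs 1100 to 10000 bp apart. Among the 4368 pairs compared that lay farther apart still, it was the same in 52.9%. These values run over pairs from the same libraries and are descriptive. Many of the pairs up to 10000 bp apart come from 35 low bins of the ribosomal RNA-like stretch described below (chr17:39843000-39847999). Values without that stretch were not computed.

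By the same rule the largest differences in 4x and 2x, the called bins aside, did not pass the test. In 4x the bins near Gm13974 (67.7 points) and near Gm40304 (56.7 points, 85.2 kb from the RefSeq TSS of the Notch pathway transcription factor gene Rbpj but inside a GENCODE Rbpj transcript) were above 0x, and the bin near Gm35236 was below (-45.4 points). In 2x the bins near Gm31590, 206 kb from the homeobox gene Meis2 (52.2 points), and near Gm22212 (51.8 points) were above. Adjusted p-values of these 5 bins were 0.860 to 0.992. The bin near Gm41333 was below (-67.3 points, adjusted p = 0.297). The last was at 0, 36.0, 0, 49.1, 14.3 and 0% in 2x, against 72.7, 82.2, 80.6 and 100% in 0x, but at 61.5% to 100% in 10x.

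Bins of the same desert stretch were next averaged, which lowers the noise of single bins. The fit held 4919 segments of at least 5 bins across the autosomes, of which 346 were desert stretches. No desert stretch was called at an adjusted p under 0.05 in 10x, beside 0.203% of all segments. None was called in 4x or in 2x, beside 0% of all segments in each (limma). At an unadjusted p under 0.05, 58 desert stretches (16.8%) were higher in 10x, beside 8.34% of all segments, and 2 (0.578%) lower, beside 2.44%. In 4x 24 (6.94%) were higher, beside 4.57%, and 4 (1.16%) lower, beside 1.36%. In 2x 14 (4.05%) were higher, beside 2.68%, and 3 (0.867%) lower, beside 1.79%. The 10x mean was above 0x in 269 of the 346 desert stretches (77.7%, median difference 2.48 points), against 61.3% and 0.670 points over all segments. In 4x it was above in 230 (66.5%, 1.33 points), against 58.2% and 0.503 points over all segments. In 2x it was above in 196 (56.6%, 0.747 points), close to the 54.4% and 0.294 points of all segments. All segments include those of transcripts, and intergenic segments nearer to a TSS were not taken apart.

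**Figure D5:**
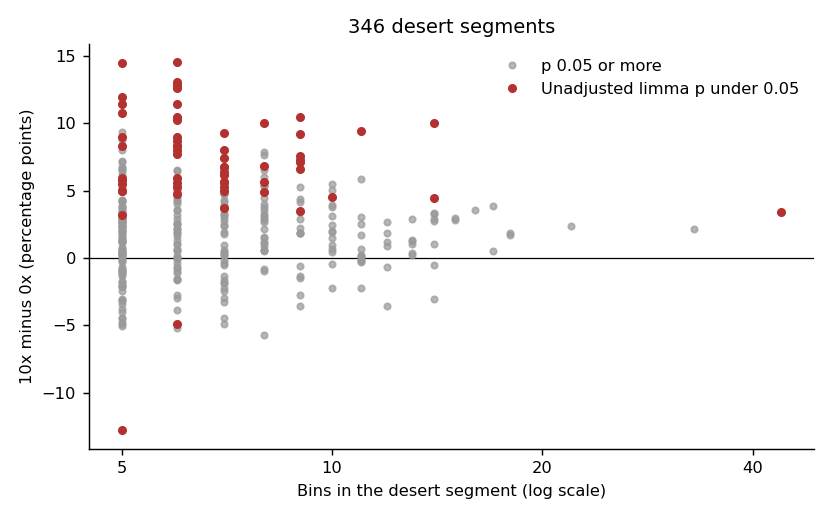
Difference between 10x and 0x in mean methylation (percentage points) of 346 desert stretches against their number of bins (log scale), with stretches at an unadjusted limma p under 0.05 in red. Of the red points, 58 lie above 0 and 2 below it, and none passes the adjustment.

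The lowest adjusted p in 10x was 0.0762, in the 454 kb stretch chr11:112207365-112661355 between Gm39461 and BC006965, which holds the BC006965 bin described above. Its 8 bins averaged 82.4, 77.7, 76.0, 79.0, 81.8 and 82.1% in 10x, against 72.5, 67.2, 72.2 and 67.4% in 0x. The groups did not overlap, and the means were 10.0 points apart. Every 4x sample was also above every 0x sample, by 9.68 points on average, while 2x samples spread on both sides. This stretch was picked after its values were seen. Its mean includes the BC006965 bin, which by itself differed by 59.5 points in 10x and 62.2 points in 4x. The mean of the other bins alone was not computed. Among stretches of at least 10 bins, the largest 10x differences were at Gm24244 to Gm32465 (14 bins, 10.0 points, adjusted p = 0.278), Irx1 to Gm41000 (11 bins, 9.44 points, 0.208) and Gm25457 to Gm35244 (11 bins, 5.90 points, 0.508). The Irx1 stretch, chr13:72013724-72487563, lies beside a homeobox gene of the Iroquois family. It was at 78.7, 82.8, 87.4, 82.7, 80.7 and 79.98% in 10x, against 78.8, 74.3, 66.7 and 70.8% in 0x, with 5 of 6 10x samples above every 0x sample. All 3 differences kept their sign in both label runs but not their size. They were 14.7 points in the lower run and 5.34 in the higher for Gm24244, 4.23 and 13.99 for Irx1, and 1.89 and 9.74 for Gm25457, which was 2.95 points without 0x sample 14. The largest negative differences were at Ofcc1 to Tfap2a (-3.56 points), Gm24986 to Gm32830 (-3.02 points) and B020011L13Rik to Tsn (-2.20 points), with adjusted p-values of 0.489 to 0.773. The Ofcc1 stretch differed by -7.79 points in the lower label run and 0.284 in the higher, and by -5.48 points without 0x sample 13 and -1.91 without 0x sample 01. The Tsn stretch differed by -3.85 points without 0x sample 01 and -1.09 without 0x sample 02.

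The stretches with most bins differed more in level than in response. The longest of them, 3477 kb between D3Ertd751e and 2610316D01Rik on chromosome 3, averaged 93.9 ± 2.55% in 10x and 91.8 ± 2.77% in 0x over 33 bins. The stretch between Cadm2, a cell adhesion gene, and 4930428D20Rik averaged 93.2% in 10x and 91.5% in 0x. Those between Dok5 and Gm46779 and between Tex29 and Gm33029 were lower, at 79.6% and 78.8% in 10x and 76.8% and 78.3% in 0x. The 9 stretches with most bins that are reported here all had a positive 10x difference, of 0.486 to 3.89 points, at adjusted p-values of 0.364 to 0.971. The sign was not stable in 2 of them. Between Tex29 and Gm33029 the difference of 0.486 points was -2.41 without 0x sample 02, -0.346 without 10x sample 11 and -0.193 without 10x sample 32, and it was 4.76 points in the lower label run and -3.55 in the higher. Between Gm33780 and Gm39886 the difference of 2.35 points was 0.171 without 0x sample 14, and it was -4.76 points in the lower run and 8.29 in the higher.

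The stretch with most bins was an exception in level. Between Esp15 and AY036118 (chr17:39690958-39848111), 35 of its 44 bins were below 20%. These lie at 39843000 to 39847999, over the GENCODE transcripts Gm26917 and CT010467.1 and the RefSeq pseudogene record Rn18s-rs5, and held 9.77 CpG sites per bin. Such ribosomal RNA-like sequence exists in many near-identical copies, so reads of other copies may be counted here and the values are uncertain. The stretch was at 21.4, 21.9, 21.1, 23.5, 24.1 and 24.4% in 10x, against 19.6, 17.05, 20.2 and 20.5% in 0x. All 10x samples were above all 0x samples, by 3.39 points on average (unadjusted p = 0.0205, adjusted p = 0.364, limma). In 4x it was at 19.2, 20.6, 28.4 and 26.4%, and in 2x at 14.9% to 21.2%, with 1 of 6 samples above and 3 of 6 below every 0x sample. The 2x mean was 17.4%, 1.96 points below that of 0x (difference -1.96).

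The other low desert bins formed small groups. The 272 low bins fell in 157 stretches, and 63 of them were in a GENCODE transcript. The second largest group was beside Six3, a homeobox gene of the forebrain and eye, where 11 of 14 bins (chromosome 17, bin starts 85464900 to 85486900) were below 20%, at 8.29% on average, while the printed high bin of the same stretch was at 95.1%. The stretch, between Camkmt and Six3os1, was at 18.2, 19.98, 24.5, 21.04, 21.2 and 17.996% in 10x, against 19.5, 13.1, 15.4 and 16.3% in 0x. It averaged 22.2% in 4x and 22.1% in 2x, and the 10x difference of 4.42 points had an adjusted p of 0.380. Smaller groups of low bins lay nearest to Gm40653 (5 bins at 3.89%, with bins over the pseudogene Gm16505), Gm31836 (5 bins at 12.2%), 4930435F18Rik (4 bins at 5.87%), Irx5 (4 bins at 4.62%), Rbx1 (4 bins at 2.59%) and Gm32305 (4 bins at 8.11%). Another 4 bins at 4.91% lay nearest to Gm36156 and, with predicted genes left aside, to Tfap2c. Groups of 3 bins, picked after their values were seen, lay nearest to Runx3 (6.57%), Uncx (7.54%) and, with predicted genes left aside, Maf (4.40%). Other groups of 3 lay nearest to 1500009L16Rik (11.5%), 3110053B16Rik (5.69%), Gm52144 (8.69%), 1700044C05Rik (6.67%), Gm40242 (2.25%) and Gm36406 (5.86%). With predicted genes left aside, the Gm32305 group lay nearest to Tbca. Runx3 and Maf encode transcription factors of blood cells, and Irx5, Uncx and Tfap2c factors of development. A stretch between Cnksr3 and Ulbp1, a ligand gene of a natural killer cell receptor, also held 5 low bins, over the pseudogene Gm21321, and averaged 31.6 ± 5.49% in 10x and 26.3 ± 4.22% in 0x, 2.24 points apart in the lower label run and 7.94 in the higher.

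Desert bins were finally described by the gene of the nearest TSS, using a list of 72 developmental regulators and a list of 50 blood regulators. Of the developmental regulators, 11 had desert bins, 60 in all, of which 16 (26.7%) were below 20%, and 11 of these 16 were at Six3. The 60 bins averaged 65.8 ± 1.43% in 10x and 63.4 ± 1.05% in 0x, with 36 bins higher and 24 lower in 10x (62.7% of all desert bins and 56.02% of all bins tested were higher) and a median difference of 0.657 points, beside 1.53 points over all desert bins and 0.509 over all bins tested. At an unadjusted p under 0.05 and 10 points, 2 were higher and 0 lower, beside 4.00% and 0.856% of desert bins and 2.90% and 1.28% of all bins, and none was called. By gene, the 14 Six3 bins averaged 20.5% in 10x and 16.1% in 0x. They are the bins of the stretch between Camkmt and Six3os1 given above, so this is not a separate result. The 12 Irx5 bins averaged 61.5% in 10x and 61.2% in 0x, and the 9 bins of Isl1, a LIM homeobox gene of heart and motor neurons, averaged 89.0% in 10x and 84.6% in 0x. The 4 Irx1 bins averaged 81.9 ± 5.54% in 10x and 70.1 ± 7.38% in 0x, with 5 of 6 10x samples above every 0x sample. They include bins of the Irx1 to Gm41000 stretch, which was named above for its 10x difference, so this mean is not a separate result either.

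When only curated RefSeq transcripts were counted, 28 of these genes had 108 bins, which averaged 78.9% in 10x and 75.7% in 0x. The 6 bins of Nr2f1, a nuclear receptor gene, averaged 94.9 ± 3.14% in 10x and 88.9 ± 1.33% in 0x, with 5 of 6 10x samples above every 0x sample. The 6 bins of Tfap2c went the other way, at 22.1 ± 2.42% in 10x and 28.3 ± 4.31% in 0x, and all 6 10x samples were below all 0x samples. The stretch between Gm36156 and Gm36254, whose low bins have Tfap2c as nearest curated gene, averaged 46.3% in 10x and 45.0% in 0x over 13 bins. That stretch differed by -6.76 points in the lower label run and 6.34 in the higher. The 4 bins of Meis2 averaged 57.2 ± 15.03% in 2x and 33.7 ± 9.32% in 0x. They include the Gm31590 bin, which was named above for its 2x difference of 52.2 points, so this mean is not a separate result. Of the blood regulators, 5 had 10 bins, which averaged 57.7 ± 2.73% in 10x and 53.9 ± 2.53% in 0x, 5 higher and 5 lower. The 4 bins of Runx3, a transcription factor of lymphocytes, averaged 24.0 ± 5.10% in 10x and 19.1 ± 7.06% in 0x, with overlap. The 2 bins of Tcf4, an E protein of B cells and plasmacytoid dendritic cells, averaged 54.8 ± 5.13% in 10x and 46.1 ± 5.41% in 0x, with 5 of 6 10x samples above every 0x sample. With curated transcripts, 2 bins of Runx1, a master regulator of HSCs, averaged 92.2% in 10x and 96.8% in 0x, and 2 bins of Kit averaged 97.5% in 10x and 96.8% in 0x. These gene means rest on 1 to 14 bins and were not tested.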

How the data were processed

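RRBS was measured in 20 samples of sorted HSCs. The submitters' processing notes list Trim Galore 0.4.3 (trimming, by the methods), Bismark 0.23.1 (alignment), methylKit 1.22.0 (methylation values) and the mm10 build. By the methods, the authors used positions covered by 10 reads or more, took 100 bp bins and replaced missing bins by their group's mean. What they deposited is percent methylation for each bin and sample. Lacking reads, it allows no depth, counting interval or test on reads. limma 3.58.1 in R 4.3.3 on the percent therefore took the place of methylKit's test.

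Groups came from the sample labels. Bins were annotated with RefSeq genes of GRCm38.p6. Each treated group was fitted with 0x alone over all bins in which every group varied without repeated values. Called bins had an adjusted p (Benjamini-Hochberg) under 0.05 and at least 10 points. Segments were runs of desert, of other intergenic DNA or of overlapping transcripts with at least 5 bins. Means over desert bins are descriptions, with SD over samples.

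Bins named in the text are those called and, among bins with an unadjusted p under 0.05 and no overlap of the groups, the 5 largest positive and negative differences in 10x and the 2 largest in 4x and 2x. Segments named are the 10 with most bins, the 5 with the lowest level and the 3 largest differences each way among those of at least 10 bins. A few items that this rule names are not reported here. The desert bins and the gene lists were chosen with earlier results of these data known. In all, 81 alternatives were planned and 1 was added after the data were seen. The fit was tested on simulated data. Files were read in Python 3.11.15 with pandas 2.3.3 and numpy 2.4.6, and in R with its data.table package at version 1.17.8, and figures were drawn with matplotlib 3.10.9.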

Additional observations from a re-analysis of the deposited data

Results flagged for a closer look

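The search covered 168 groups of values, from the named bins and stretches and from summaries over the desert bins. The summaries were the mean, the shares at 0% and 100% and the level classes. In 16 of these groups (9.52%) a sample stood far from the rest, as judged by its gap over the group's range. All 16 were in named bins or stretches. Chance alone sets about 1 in 20 groups apart, and percent values with few reads behind them, such as 0 or 100, are prone to it.

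Among bins that were higher in a treated group, 2x sample 03 was at 42.5% in the Gm31135 bin, where the other 2x samples were at 82.8% to 100%. In the Gm46834 bin, 2x sample 18 was at 96.0% (the others at 99.2% to 100%) and 10x sample 11 at 39.5% (the others at 77.4% to 100%). In the BC006965 bin, 2x sample 04 was at 0% (69.6% to 100%) and 4x sample 20 at 42.1% (92.9% to 100%). In the Tecrl bin, 10x sample 34 was at 95.7% (99.2% to 100%) and 0x sample 13 at 0% (52.5% to 63.3%). In the Cwc27 bin, 10x sample 32 was at 100% (31.5% to 47.1%), and in the bin near Gm40304 and Rbpj, 4x sample 06 was at 82.7% while the other 3 were at 100%.

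Among bins that were lower in a treated group, 4x sample 19 was at 100% in the Gm39204 bin, where the other 4x samples were at 23.1% to 32.4%, and in the Gm41333 bin the same sample was at 0% (73.1% to 80.1%). In the Gm35818 bin, 10x sample 32 was at 0% (63.3% to 78.6%).

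Among stretches, 2x sample 16 was at 81.0% between Cadm2 and 4930428D20Rik (92.5% to 95.6%), and 10x sample 34 was at 85.5% between Gm42163 and Gm35251 (90.9% to 92.6%). Among 0x samples, sample 01 was at 32.6% between Cnksr3 and Ulbp1 (23.6% to 24.6%), and sample 13 at 38.4% between Gm36156 and Gm36254 (46.7% to 47.5%).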

How the results depend on the processing

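The desert mean kept its sign in 10x, 4x and 2x under every alternative run. Low bins (below 20%) taken alone had differences of -0.235 points in 10x and -0.242 points in 2x. In 10x, where the difference was 2.43 points, it was 1.05 over all deposited desert bins, 3.29 over bins of 20% to 80% and 1.75 within label numbers 1 to 12, and 2.16 to 2.91 with 1 sample left out. In 4x (1.52 points) it was 0.475 over all deposited bins, 0.542 and 2.50 within label numbers 1 to 12 and 13 to 34, and 1.25 to 2.00 with 1 sample left out. In 2x (0.494 points) it was 0.507 over all deposited bins and 0.0876 over bins of 20% to 80%. It was 2.67 where at least 3 groups had to vary, and 0.224 to 0.972 with 1 sample left out. The order of 2x and 4x thus depended on the bins used.

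Calls of single bins were few and unstable. Called bins numbered 1 in 10x and 2 in 2x, and 0 of either with a mean-dependent prior (limma trend), a spread shared over 4 groups, log2 ratios of the percents, or the label run as a block. Without a sample they numbered 0 to 12 in 10x (12 without 0x sample 01, 4 without 02, 3 without 13, 0 without any of 10x samples 31 to 34) and 0 to 5 in 2x (5 without 0x sample 01, 1 without 02 or 14, and 0 without 0x sample 13 or 2x samples 03, 15, 16 or 18). Of all 84131 bins, 78 were called higher and 20 lower in 10x without 0x sample 01, where 10 and 2 of the 5721 desert bins were. In 2x without that sample, 18 of all bins were called higher and 6 lower, with 5 and 0 desert bins. In 4x there were 0 called desert bins, and 0 with any sample left out, but 1 with curated transcripts. The slope called 0, and 0 to 1 with a sample left out (1 without 0x sample 01 or 14). Without adjustment 278, 199 and 183 bins passed in 10x, 4x and 2x, and 244 for the slope, and 60, 28 and 17 stretches passed where 0 did with it, or with any sample left out. Over all deposited bins that vary, 7614 desert bins were called in 10x, 7057 in 4x, 9678 in 2x and 6436 for the slope. There repeated values within a group lower its spread. Of 63626 desert bins, 5019 were called higher and 2595 lower in 10x, beside 48148 and 27683 of all 701483 bins. In 4x these counts were 3971 and 3086, beside 39332 and 30544. In 2x they were 5190 and 4488, beside 52121 and 46349. For the slope they were 2836 and 3600, beside 30240 and 34538. Over 14 alternatives the adjusted p of the Gm31135 bin ranged between 0.0301 and 0.911 (called in 5), that of the Gm46834 bin between 0.0135 and 0.800 (called in 4) and that of the Rasa1 bin between 0.0281 and 0.999999 (called in 3). Other causes were not tested.

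No paired analysis was possible because the label numbers run from 1 to 34 without repeats, so the groups share none. Filled values in single samples cannot be recognised, read depth is unknown, and the set of bins leaves out those at 0% or 100% throughout a group.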
